A study of Mus musculus with 8 samples.

Results

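TREM2, its signalling partners and the Fc receptors for immunoglobulin G form a set of 10 genes that was followed through photoreceptor degeneration in whole mouse retina. The set was fixed as a list of gene names, with earlier results of these data known: Trem2, the Fc receptors Fcgr1, Fcgr3, Fcgr4 and Fcgr2b, the signalling adaptors Tyrobp, Fcer1g and Hcst, the kinase Syk and the lipid phosphatase Inpp5d. All 10 were found by their Ensembl identifiers among 57010 in the table of raw counts, and all 10 were among the 20457 genes that passed the filter on low counts. Poly(A) RNA of whole retina was sequenced from C57BL/6J wild-type (WT) mice at postnatal day 15 (P15), and from rd10 mice of that age and at 2 later ages, P18 and P21. Each group had 2 libraries and each library came from 1 retina. rd10 mice carry a mutation of Pde6b, a subunit of the phosphodiesterase of rod photoreceptors, in every cell of the body, and their rods degenerate. WT retina was sequenced at P15 alone, so that a comparison of rd10 P18 or P21 with WT P15 changes age as well as genotype. The labels do not say whether the retinas of a group came from separate mice, and the p-values measure the spread between these libraries, which may be technical.

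TREM2 is a receptor of microglia and other myeloid cells for lipids and lipoproteins. It has no signalling tail of its own and pairs with DAP12, the product of Tyrobp, whose immunoreceptor tyrosine-based activation motif (ITAM) is phosphorylated by Src family kinases and then binds the kinase SYK. The activating Fc receptors for immunoglobulin G, encoded by Fcgr1, Fcgr3 and Fcgr4, use the ITAM of the FcR gamma chain, the product of Fcer1g, in the same way, whereas Fcgr2b encodes the inhibitory receptor. DAP10, the product of Hcst, couples to phosphoinositide 3-kinase instead of SYK, and SHIP1, the product of Inpp5d, removes the lipid that this kinase makes. In the retina these genes are known from microglia, and the question of these comparisons was how the set moved as rods degenerate.

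Total counts per library lay between 28076947 and 33724562, and the 10 genes together took between 306 and 2738 counts of a library, which limits the precision of every value given here. Levels are CPM, which relate a count to the library size scaled by its TMM factor. The libraries of a group differed beyond sampling noise, the chi-square per gene being 22.9 in rd10 P15, 28.6 in WT P15, 37.2 in rd10 P21 and 96.6 in rd10 P18. Both WT P15 libraries held at least 26338 counts of Xist, the RNA of the inactive X chromosome, both rd10 P15 libraries held at most 89, and the libraries of rd10 P18 and of rd10 P21 were 1 of each kind, so that sex and genotype cannot be told apart at P15. The rod transducin gene Gnat1 was high in all 8 libraries (4461 to 11060 CPM) and all 18 genes of a list for microglia passed the filter. Replicate 2 of rd10 P21 stood apart from replicate 1 for this set: each of the 10 genes was lower in it, by a median factor of 2.31. It was also the library of its group with high Xist (80032 counts, against 72 in replicate 1). In rd10 P18 replicate 2 was likewise the one with high Xist (77008 counts, against 44). A gap between the replicates at P18 or P21 therefore cannot be told apart from sex. Calls at P21 are therefore also given with each of its libraries left out.

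A gene was called when edgeR's quasi-likelihood test gave a Benjamini-Hochberg adjusted p under 0.05 over all tested genes and an absolute log2 fold change over 1. At P18, 2 of the 10 genes, Fcgr1 and Fcgr3, were called higher in rd10 retina than in WT P15, where 1.15% of all tested genes were. Both rd10 P18 libraries were above both WT libraries for 9 of the 10, the exception being Trem2, and for 24.1% of all genes. Fcgr4 and Hcst reached the level of the filter in no P15 library of either genotype and passed through P18 and P21 libraries alone, so that they had to be higher there, and the counts and medians over the 10 describe the set and are no support. The median log2 fold change of the 10 was 2.99, beside 0.01 over all genes. Of the 10, 8 had an unadjusted p under 0.05, beside 3563 of all 20457 tested genes, and 6 had an adjusted p under 0.10. DESeq2 called 8, beside 3.63% of the genes it tested.

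At P21, 0 of the 10 were called higher than in WT P15, where 0.244% of all genes were. Both rd10 P21 libraries were nevertheless above both WT libraries for 10 of 10, beside 24.9% of all genes, and the median log2 fold change was 2.65. In this comparison 9 of the 10 had an unadjusted p under 0.05 (2416 of all 20457 genes), and DESeq2 called 8 (2.36% of all genes higher). Without replicate 2 of rd10 P21, edgeR called 2, Fcgr1 and Inpp5d, and without replicate 1 it called 0. At P15, 0 of the 10 were called higher in rd10 (0.137% of all genes), and both rd10 libraries were above both WT libraries for 4 (24.8% of all genes). An unadjusted p under 0.05 was seen for 1 gene of the set (2523 of all 20457 genes), while DESeq2 also called 0 (1.25% of all genes higher). No gene of the set was called lower in any of the 6 comparisons made, where 0.0147% to 0.332% of all genes were. In bulk RNA, more cells of a type and more RNA per cell cannot be told apart.

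**Figure D1:**
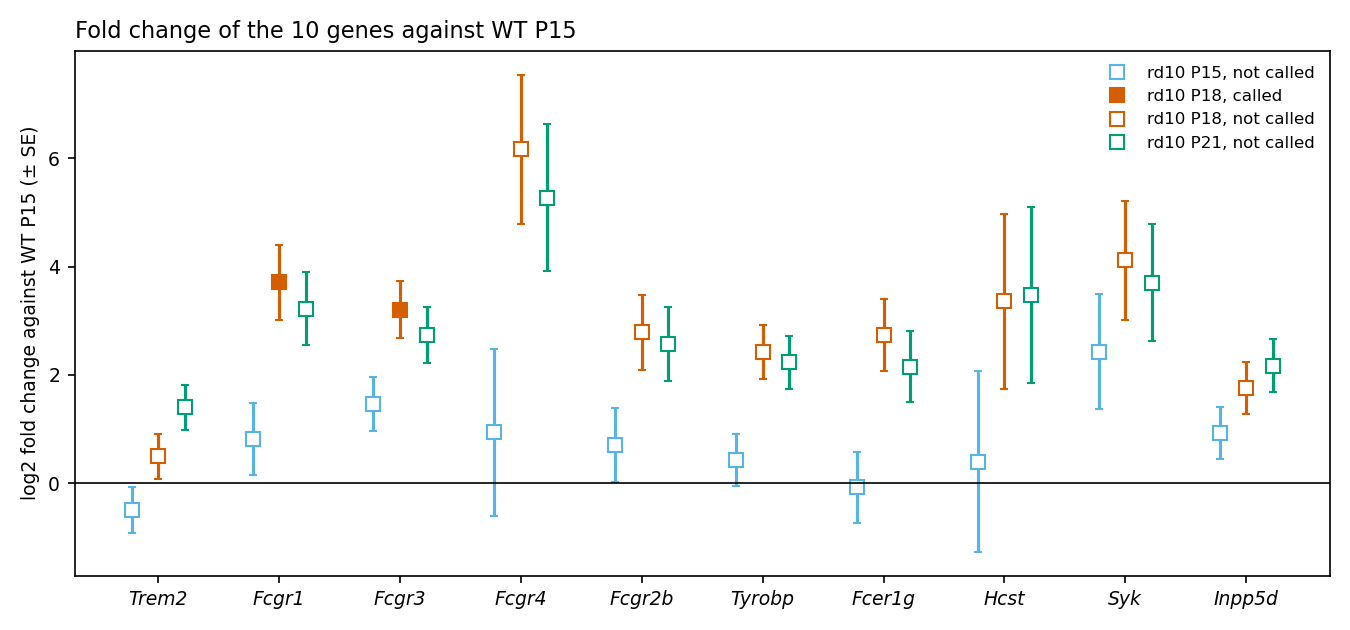
Log2 fold change against WT P15 (y axis) of each of the 10 genes (x axis) in rd10 retina at P15, P18 and P21, with bars of 1 standard error from the fit of all 8 libraries and filled squares for called genes. Only Fcgr1 and Fcgr3 at P18 are filled, Fcgr4 has the highest values at P18 and P21, and Trem2 the lowest at all 3 ages.

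Trem2 (chr17:48346401-48354147, plus strand, GRCm38) encodes the receptor itself. It measured 3.51 and 2.43 CPM in WT P15, against 1.94 and 2.26 CPM in rd10 retina at P15, 5.13 and 3.25 CPM at P18, and 9.99 and 5.70 CPM at P21. Both rd10 P15 libraries were thus below both WT libraries, as they were for 24.9% of all genes, the rd10 P18 libraries overlapped with WT, and both rd10 P21 libraries were above. Its log2 fold change against WT P15 was -0.50 (SE 0.42, adjusted p = 0.701) at P15, 0.50 (SE 0.41, adjusted p = 0.584) at P18 and 1.40 (SE 0.42, adjusted p = 0.220) at P21. Against rd10 P15 it was 1.90 at P21 (SE 0.43, adjusted p = 0.126), where DESeq2 (adjusted p = 0.00589) was the 1 of 15 alternatives that called it. Trem2 was the lone member with both rd10 P21 libraries above both rd10 P18 libraries, by 0.91 on the log2 scale (SE 0.41, adjusted p = 0.472).

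**Figure D2:**
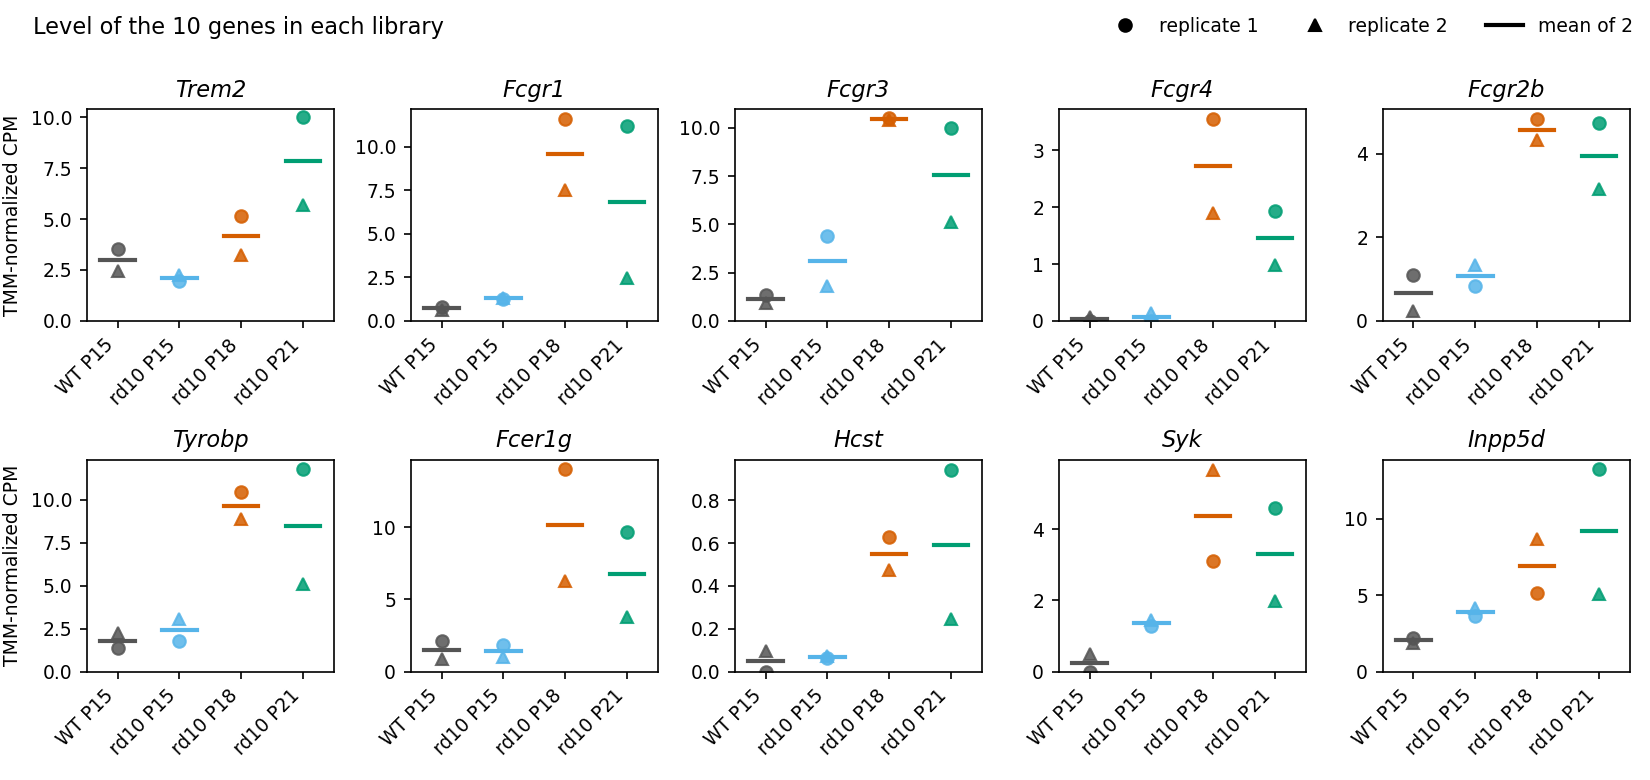
TMM-normalized CPM (y axis, from 0, with its own scale for each gene) of the 10 genes in WT P15, rd10 P15, rd10 P18 and rd10 P21 (x axis), with circles for replicate 1, triangles for replicate 2 and bars for the mean. The P18 and P21 libraries sit above the P15 libraries of both genotypes for all genes but Trem2, and replicate 1 of P21 sits above replicate 2 in every panel.

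Fcgr1 (chr3:96282909-96293969, minus strand) encodes the high-affinity receptor for immunoglobulin G. It measured 0.813 and 0.647 CPM in WT P15, against 1.24 and 1.34 CPM in rd10 retina at P15, 11.6 and 7.53 CPM at P18, and 11.2 and 2.48 CPM at P21. Both P18 libraries were well above every P15 library of either genotype, and the P21 libraries differed from each other by more than those of any other group. Fcgr1 rose at P18 against WT P15 by 3.71 on the log2 scale (SE 0.69, adjusted p = 0.03995). When each of the 8 libraries was left out, the log2 fold change stayed between 3.36 and 3.99 while the adjusted p ran from 0.0115 to 0.251, with the highest p without WT P15 replicate 1. At P21 the log2 fold change was 3.22 (SE 0.68, adjusted p = 0.103), with 3.93 (adjusted p = 0.0178) without replicate 2 of rd10 P21 and 1.76 (adjusted p = 0.417) without replicate 1.

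Fcgr3 (chr1:171051174-171064935, minus strand) encodes a low-affinity activating receptor. It measured 1.33 and 0.939 CPM in WT P15, against 4.39 and 1.83 CPM in rd10 retina at P15, 10.5 and 10.4 CPM at P18, and 9.99 and 5.10 CPM at P21. Every rd10 library was above both WT libraries, at P15 as well. Fcgr3 rose at P18 by 3.20 on the log2 scale (SE 0.52, adjusted p = 0.0291), with 2.97 to 3.48 and an adjusted p of 0.0128 to 0.188 when each library was left out, the highest p again being that without WT P15 replicate 1. With a term for sex the adjusted p was 0.0542. At P21 the log2 fold change was 2.73 (SE 0.52, adjusted p = 0.0795), and at P15 it was 1.46 (SE 0.51, adjusted p = 0.288), the single unadjusted p under 0.05 in the set at that age.

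Fcgr4 (chr1:171018920-171029761, plus strand) encodes a further activating receptor. It had 0 and 2 counts in WT P15, against 0 and 4 counts in rd10 retina at P15, 119 and 60 counts at P18, and 68 and 28 counts at P21. It was near absent at P15 in both genotypes, and passed the filter on low counts through the P18 and P21 libraries alone. Summed over libraries, the ratio to WT P15 was 79.5 at P18 (95% exact counting interval 21.7 to 661) and 43.7 at P21 (11.8 to 366), where the intervals cover counting error only. By edgeR Fcgr4 missed the threshold at both ages, with an adjusted p of 0.0711 for P18 and 0.160 for P21, whereas DESeq2 called it at both ages (adjusted p = 0.000527 and 0.00768). Without replicate 2 of rd10 P18, edgeR called it at P18 (adjusted p = 0.0288), and over the 15 alternatives the adjusted p ran from 0.000527 to 0.327.

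Fcgr2b (chr1:170958617-170976547, minus strand) encodes the inhibitory receptor. It measured 1.11 and 0.227 CPM in WT P15, against 0.827 and 1.34 CPM in rd10 retina at P15, 4.83 and 4.32 CPM at P18, and 4.74 and 3.15 CPM at P21. The WT libraries lay far apart, and the P18 and P21 libraries were all above them. Its log2 fold changes were 2.78 (SE 0.69, adjusted p = 0.0914) at P18 and 2.57 (SE 0.69, adjusted p = 0.171) at P21. The inhibitory receptor thus had values in the same direction as the activating ones, though it was not called. Of the 50-base windows of annotated transcripts, Fcgr2b and Fcgr3 shared 166, which is 9.58% of those of Fcgr3 and 2.92% of those of Fcgr2b, and reads in them may have been divided between the genes. With all other genes together, on either strand, Fcgr2b shared 395 windows (6.95%). Fcgr2b also shares 155 exonic bases with Gm38204 on the opposite strand.

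Fcgr2b, Fcgr4, Fcgr3 and Fcer1g lie in this order on chromosome 1, with gaps of 42372, 21412 and 164636 bases, and the activating receptors that were called or nearly absent in WT are shown here with the DNA before their start sites, beside that of Trem2, whose values took another course. The sequences are the 150 bases before the first start site listed by RefSeq (GRCm38.p6), written 5′ to 3′ on the strand of the gene. Capitals mark matches, on either strand, to GAGGAA or GGAAGT, cores bound by Ets family factors such as PU.1, which can overlap each other. They also mark TGANTCA, a pattern wider than the AP-1 element since N stands for any base, and TTCNNNGAA, the element of STAT factors. The windows are chr3:96293970-96294119 for Fcgr1, chr1:171059404-171059553 for Fcgr3, chr1:171018776-171018925 for Fcgr4 and chr17:48346251-48346400 for Trem2.
Fcgr1: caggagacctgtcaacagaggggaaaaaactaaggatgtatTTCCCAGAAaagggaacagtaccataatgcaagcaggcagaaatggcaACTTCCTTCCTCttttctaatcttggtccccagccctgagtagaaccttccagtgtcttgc
Fcgr3: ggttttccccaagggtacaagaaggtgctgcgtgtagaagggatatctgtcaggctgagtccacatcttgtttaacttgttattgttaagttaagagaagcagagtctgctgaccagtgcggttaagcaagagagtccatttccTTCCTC
Fcgr4: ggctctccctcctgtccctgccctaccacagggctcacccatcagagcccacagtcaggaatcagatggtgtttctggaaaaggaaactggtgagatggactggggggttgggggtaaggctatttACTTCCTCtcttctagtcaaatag
Trem2: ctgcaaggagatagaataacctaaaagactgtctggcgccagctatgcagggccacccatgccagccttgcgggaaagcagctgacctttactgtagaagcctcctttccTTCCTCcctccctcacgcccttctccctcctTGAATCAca
All 4 windows hold GAGGAA, read on the opposite strand, and it begins 55 bases before the start in Fcgr1, 6 in Fcgr3, 22 in Fcgr4 and 40 in Trem2. RefSeq start sites were matched for 9 of the 10 genes, and Tyrobp was not among them. Over all start sites of these 9, GAGGAA was found for 6 genes (Trem2, Fcgr1, Fcgr3, Fcgr4, Syk and Inpp5d), beside 14.5% of 32851 windows of this length. GGAAGT was found for 5 (Fcgr1, Fcgr4, Fcgr2b, Hcst and Inpp5d), beside 13.6% of windows. TGANTCA was found for Trem2 (4.24% of windows) and TTCNNNGAA for Fcgr1 (4.09% of windows). The letters matched in Trem2 were TGAATCA, with A at the middle place, where the AP-1 element has C or G. These shares are of single windows, whereas a gene was counted if any of its start sites matched. Fcgr3 and Syk had 2 start sites each, and Syk matched GAGGAA at start site 2 alone, so that the measures are not alike. A match describes letters in the window and was not tested as a binding site.

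Tyrobp (chr7:30413760-30417585, plus strand) encodes DAP12, the partner of TREM2. It measured 1.37 and 2.23 CPM in WT P15, against 1.78 and 3.07 CPM in rd10 retina at P15, 10.4 and 8.92 CPM at P18, and 11.8 and 5.10 CPM at P21. The P15 libraries of both genotypes overlapped, and all P18 and P21 libraries were above them. Against WT P15, the log2 fold change was 2.42 at P18 (SE 0.49, adjusted p = 0.0534) and 2.23 at P21 (SE 0.49, adjusted p = 0.116). At P18, 6 of the 15 alternatives placed Tyrobp under the threshold, among them scaling by library size alone (adjusted p = 0.0417), and the range over all 15 was 0.000322 to 0.323.

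Fcer1g (chr1:171229572-171234365, minus strand) encodes the FcR gamma chain. It measured 2.14 and 0.906 CPM in WT P15, against 1.85 and 1.02 CPM in rd10 retina at P15, 14.0 and 6.30 CPM at P18, and 9.71 and 3.81 CPM at P21. The values at P15 were alike in range in both genotypes, and at P18 and P21 replicate 1 was far above replicate 2. The log2 fold change was -0.08 at P15 (SE 0.65, adjusted p = 0.986), 2.74 at P18 (SE 0.66, adjusted p = 0.0858) and 2.15 at P21 (SE 0.65, adjusted p = 0.226).

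Hcst (chr7:30417712-30419854, minus strand) encodes DAP10, and its end lies 126 bases from that of Tyrobp. It had 0 and 3 counts in WT P15, against 2 and 2 counts in rd10 retina at P15, 21 and 15 counts at P18, and 33 and 7 counts at P21. These were the lowest counts of the set after P15, and Hcst too passed the filter through P18 and P21 libraries alone. Summed over libraries, the ratio to WT P15 was 10.6 at P18 (95% exact counting interval 3.37 to 54.1) and 12.1 at P21 (3.87 to 61.3), but the adjusted p was 0.336 and 0.460. DESeq2 did not call it either (adjusted p = 0.225 and 0.307).

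Syk (chr13:52583173-52648792, plus strand) encodes the kinase that binds phosphorylated ITAMs. It had 0 and 15 counts in WT P15, or 0 and 0.486 CPM, and in rd10 retina measured 1.27 and 1.45 CPM at P15, 3.10 and 5.67 CPM at P18, and 4.60 and 1.99 CPM at P21. Every rd10 library was above both WT libraries. In log2 terms the difference was 2.43 at P15 (SE 1.06, adjusted p = 0.410), 4.12 at P18 (SE 1.09, adjusted p = 0.110) and 3.71 at P21 (SE 1.08, adjusted p = 0.217). These sizes hang on the WT libraries, since without WT P15 replicate 1 the log2 fold change at P18 was 3.16, and without WT P15 replicate 2 the WT group was at 0 counts.

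Inpp5d (chr1:87620312-87720507, plus strand) encodes SHIP1, which opposes signalling through phosphoinositide 3-kinase. It measured 2.22 and 1.88 CPM in WT P15, against 3.63 and 4.12 CPM in rd10 retina at P15, 5.16 and 8.66 CPM at P18, and 13.3 and 5.10 CPM at P21. Every rd10 library was above both WT libraries for this gene too. Set against WT P15, the log2 fold change was 0.92 at P15 (SE 0.48, adjusted p = 0.498), 1.75 at P18 (SE 0.49, adjusted p = 0.118) and 2.17 at P21 (SE 0.49, adjusted p = 0.118). Without replicate 2 of rd10 P21, it was called at P21, with a log2 fold change of 2.69 (adjusted p = 0.0485), and without replicate 1 it was not, at 1.32 (adjusted p = 0.585).

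Per kilobase of the longest coding transcript, Tyrobp had the highest mean level of the set in all 4 groups, from 3.19 ± 1.09 CPM per kilobase in WT P15 (SD, n = 2) to 17.2 ± 1.91 in rd10 P18. In WT P15 it was followed by Trem2 at 2.73 ± 0.704, Fcer1g at 2.23 ± 1.28 and Fcgr3 at 0.842 ± 0.206 CPM per kilobase (SD, n = 2), and the first 3 did not differ beyond their spread. In rd10 P18, Fcer1g came next at 14.9 ± 7.99, then Fcgr3 at 7.77 ± 0.0375 and Trem2 at 3.85 ± 1.23 CPM per kilobase, where Tyrobp and Fcer1g did not differ beyond their spread, nor did Trem2 and Fcgr1 at 3.69 ± 1.11. In rd10 P21, Trem2 stood at place 3, at 7.21 ± 2.79 CPM per kilobase. Syk had the lowest level in rd10 P18 and P21, at 0.818 ± 0.339 and 0.614 ± 0.343 CPM per kilobase. The place of Trem2 hangs on its length, which is 1088 bases for the longest coding transcript and 4946 bases over all annotated exons, and over all exons it took place 7 in rd10 P18.

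Within rd10 retina, the values at P18 and P21 were compared with those at P15, the same libraries in both cases. At P18, 0 of the 10 genes were called higher than at P15 (0.523% of all genes), and both libraries were above both for 10 of 10 (21.9% of all genes). Of the set, 7 had an unadjusted p under 0.05 (2638 of all 20457 genes), with a median log2 fold change of 2.04. DESeq2 called 5 in this comparison (2.41% of all genes higher). At P21, 0 were called higher than at P15 (0.298% of all genes), and both libraries were above both for 10 of 10 (26% of all genes). At this age 8 had an unadjusted p under 0.05 (2624 of all 20457 genes), with a median of 1.88, and DESeq2 called 5 (2.22% of all genes higher). The largest values were those of Fcgr4, whose summed counts gave a ratio of P18 to P15 of 41.0 (95% exact counting interval 15.7 to 152, counting error only). Fcgr4 and Hcst passed the filter through P18 and P21 libraries alone, so that they had to be higher than at P15. The counts, medians and this ratio are therefore descriptions and no support.

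Between P21 and P18, 0 were called higher (0.00489% of all genes), 0 had an unadjusted p under 0.05 (2219 of all 20457 genes), and DESeq2 called 0 (0.278% of all genes higher). Both libraries were above both for 1 gene, Trem2 (21% of all genes), and both were below both for 1 (22% of all genes), Fcgr3, at -0.47 on the log2 scale (SE 0.47, adjusted p = 0.727). The log2 fold change was above 0 for 3 of the 10, Trem2, Hcst and Inpp5d. Without replicate 2 of rd10 P21 it was above 0 for Fcgr1, Fcgr2b, Tyrobp and Syk as well.

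Since the set is known from microglia, its level was read against the mean log2 CPM of 18 other genes of microglia, among them Csf1r, Cx3cr1, P2ry12, Tmem119 and C1qa. This mean was above that of WT P15 by 0.58 and 0.62 in the rd10 P15 libraries, 2.04 and 2.01 at P18, and 2.67 and 1.65 at P21. Of the 18 genes, 5 were called higher at P18 (1.15% of all genes) and 3 at P21 (0.244% of all genes). The 18 differed widely among themselves, so that a value relative to their mean depends on the genes chosen: the log2 fold change at P18 against WT P15 was 6.20 for Itgam and 4.50 for Aif1, but 0.48 for P2ry12, 0.50 for P2ry13, 0.77 for Gpr34 and -0.22 for Olfml3, beside 0.50 for Trem2. The difference between log2 CPM of Trem2 and this mean was 0.29 and -0.36 in the WT libraries, and in rd10 retina it was -1.19 and -1.02 at P15, -1.27 and -1.90 at P18, and -0.96 and -0.74 at P21. All 6 rd10 libraries were therefore below both WT libraries, with mean shifts of -1.07, -1.55 and -0.81. This position is not particular to Trem2, since the mean of the 18 genes itself rose. The median log2 fold change over all genes against WT P15 was -0.006 at P15, 0.011 at P18 and 0.001 at P21. A gene of unchanged level would thus also be lower relative to this mean, and the share of all genes that were was not computed.

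Syk and Fcgr4 took the other direction. Relative to the 18 genes, Syk was above both WT libraries in every rd10 library, with mean shifts of 2.31 at P15, 2.47 at P18 and 1.87 at P21, and Fcgr4 was above them at P18 and P21, with shifts of 2.83 and 1.82. Both genes had 0 counts in a WT library, so that the size of these shifts depends on the prior count of 2. Fcgr1 was above WT by 1.55 and Fcgr3 by 1.13 at P18. Tyrobp shifted by 0.40 at P18 and by -0.05 at P21, and Inpp5d by -0.34 and -0.18, the P18 and P21 libraries overlapping with WT for Inpp5d. These relative values were not tested.

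**Figure D3:**
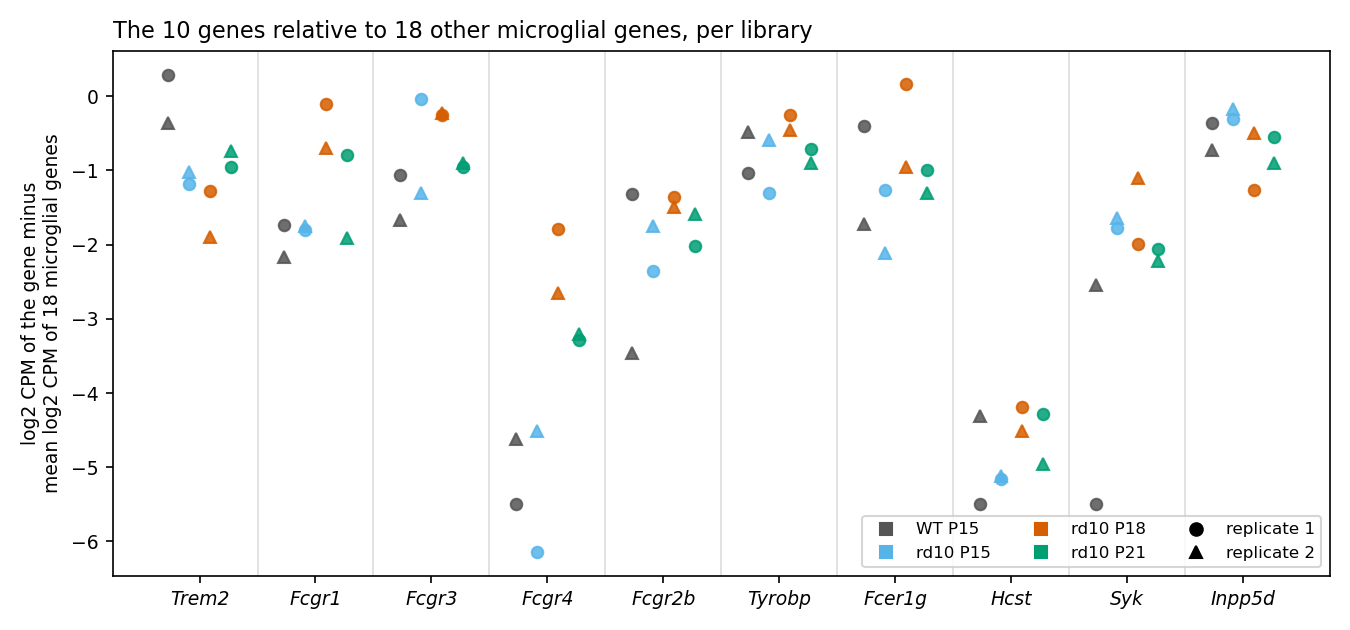
Log2 CPM of each of the 10 genes minus the mean log2 CPM of 18 other microglial genes (y axis) in every library, with colours for the groups, circles for replicate 1 and triangles for replicate 2. For Trem2 all rd10 libraries lie below both WT libraries, for Syk they all lie above, and Fcgr4 lies higher at P18 and P21 than at P15. The mean of the 18 genes is itself higher in rd10 than in WT P15, so that a gene of unchanged level would lie lower in rd10.

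Other blood and myeloid cells can express several of these genes, and some of their markers were at different levels in the groups. Of 11 genes for monocytes and perivascular macrophages, Ccr2 measured 0.11 and 0 CPM in WT P15, against 0.13 and 0 in rd10 retina at P15, 2.51 and 2.68 at P18, and 2.31 and 0.10 at P21. Ly6c2 was at most 0.30 CPM in the P15 libraries, measured 4.83 and 2.02 CPM at P18 and 6.57 CPM in replicate 1 of P21, and had 0 counts in replicate 2 of P21. Together the 11 reached 21.5 to 25.2 CPM in WT P15, against 26.2 to 32.5 at P15, 30.9 to 43.8 at P18 and 45.2 to 54.8 at P21 in rd10 retina, most of it from Lyve1 and Vcan. Plac8 had 0 counts in all P15 libraries, and measured 6.14 and 1.01 CPM at P18 and 1.88 and 0 CPM at P21. F13a1, Ms4a7 and Mrc1 had 0 counts in WT P15. In rd10 P18 they measured 1.01 and 0.63, 1.85 and 1.07, and 0.72 and 0.82 CPM. Pf4 was at most 0.85 CPM (replicate 2 of rd10 P18), Chil3 0.42 CPM (replicate 1 of rd10 P18) and Cd163 0.28 CPM (replicate 2 of rd10 P21). Of the 8 tested genes, 0 were called against WT P15 (0.137% to 1.15% of all genes called higher). In replicate 2 of rd10 P21, Ccr2 and Ly6c2 were near 0 and all 10 genes of the set were above both WT libraries. The sum of the 11 was at its highest there (54.8 CPM), mostly from Vcan (31.3 CPM) and Lyve1 (20.2 CPM). In WT P15 Vcan already measured 6.76 and 6.77 CPM, and Lyve1 18.1 and 14.7 CPM. Mrc1, a gene of perivascular macrophages, was at 2.03 CPM in that rd10 P21 library, and each other gene of the list at 0.63 CPM or less.

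The neutrophil genes Ly6g, Mpo and Elane had 0 counts in all 8 libraries. S100a8, another neutrophil gene, measured 1.52 CPM in replicate 1 of rd10 P18 and 0.14 CPM in replicate 2 of rd10 P21, S100a9 measured 0.42 CPM in the same P18 library, and both had 0 counts in all other libraries. The 9 neutrophil genes summed to 0.518 to 1.33 CPM in WT P15, 0.212 to 1.05 at P15, 2.68 to 3.64 at P18 and 2.03 to 5.08 at P21 in rd10 retina. Csf3r, the 1 of the 9 that passed the filter, was the largest part of each sum. It measured 1.64 and 2.68 CPM at P18 and 5.08 and 1.89 CPM at P21. The 6 genes for mast cells and basophils had 0 counts throughout. The 12 genes for NK and T cells summed to 0 to 0.591 CPM in WT P15, against 2.83 to 3.42 at P15, 1.99 to 5.01 at P18 and 1.85 to 2.77 at P21 in rd10 retina. In rd10 P15 nearly all of that sum was Cd8a (2.83 and 3.31 CPM), while Cd3d, Cd3e, Cd3g, Ncr1 and Nkg7 had 0 counts there. The 5 genes for B cells summed to at most 1.92 CPM. Of 7 genes for reactive Muller glia, 6 were called higher in rd10 P18 (1.15% of all genes) and 5 in rd10 P21 (0.244% of all genes). The 5 genes of the retinal pigment epithelium summed to 37.1 to 141 CPM in WT P15, against 185 to 221 at P15, 18.6 to 29.7 at P18 and 22.3 to 28.7 at P21 in rd10 retina. The 8 rod genes summed to 48342 and 38755 CPM in WT P15, against 28697 and 30444 in rd10 retina at P15, 24466 and 25860 at P18, and 18835 and 24585 at P21. Of these genes, Gnat1 was not called at P18 (log2 fold change -0.75, adjusted p = 0.0403) and fell at P21 (log2 fold change -1.15, adjusted p = 0.0332). The part of these other cells, and of the lower share of rod RNA, in the values of the set was not tested.

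The rest of the pathway was read from a list of 82 genes in 6 roles, of which 61 passed the filter and 7 had 0 counts in all libraries. In rd10 P18 against WT P15, 5 of the 61 were called higher (1.15% of all genes) and 0 lower (0.332%), with a median log2 fold change of 0.73. In rd10 P21, 2 were called higher (0.244% of all genes) and 0 lower (0.142%), with a median of 0.72. At P15 0 were called in either direction (0.137% of all genes higher and 0.0929% lower), and the median was 0. Of the 61, 10 had an unadjusted p under 0.05, beside 2523 of all 20457 genes, and DESeq2 called 1 higher (1.25% of all genes) and 1 lower. Of the 61, 6 passed the filter through P18 and P21 libraries alone, Treml2 and Ms4a6d among them, so that they had to be higher there and their calls are descriptions.

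Among the other TREM family members and receptors with ITAM or ITAM-like signalling, Treml2 had 0 counts in WT P15 and 1.64 and 1.48 CPM in rd10 P18. It was called higher at P18 (adjusted p = 0.0328), at least 30.2-fold by a floor of 3 counts over the WT group. Clec7a, the receptor for beta-glucan known as dectin-1, measured 0.67 and 0.84 CPM in WT P15, against 0 and 0.18 in rd10 retina at P15, and 8.89 and 11.3 at P18. Its log2 fold change against WT P15 was -3.10 at P15 (adjusted p = 0.310), 3.73 at P18 (adjusted p = 0.0808) and finally 3.21 (adjusted p = 0.173) at P21. It was called at P18 against rd10 P15 (adjusted p = 0.0485).

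All 6 Src family kinases passed the filter, and both rd10 P18 libraries were above both WT libraries for 5, beside 24.1% of all genes. In the comparisons with WT P15, 0 of the 6 were called at any age, where 0.137% (P15), 1.15% (P18) and 0.244% (P21) of all genes were called higher. Of the 22 adaptors and effectors around SYK, 15 had both P18 libraries above both WT libraries (24.1% of all genes) and 1 was called (1.15% of all genes). This was Lcp2, the adaptor SLP-76, which measured 0.37 and 0.45 CPM in WT P15 and 4.18 and 5.70 CPM in rd10 P18, a log2 fold change of 3.57 (SE 0.56, adjusted p = 0.0285). At P21 it was 2.94 (SE 0.55, adjusted p = 0.0782). Pik3cg, a catalytic subunit of phosphoinositide 3-kinase, had a log2 fold change of 1.13 at P15 (adjusted p = 0.624), and Vav1, a guanine nucleotide exchange factor, 2.39 at P21 (adjusted p = 0.458).

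Of 15 inhibitory receptors and phosphatases, 0 were called at P18 or P21 (1.15% and 0.244% of all genes called higher). A log2 fold change over 1 was seen for 6 at P18 and 7 at P21, beside 11.2% and 10.2% of all genes. Of the 7 tested genes for ligands, sheddases and modulators of TREM2, Clu and Ms4a6d were called at P18 (1.15% of all genes called higher). Clu encodes clusterin, a lipoprotein that TREM2 binds, and it measured 426 and 454 CPM in WT P15, against 1229 and 947 CPM in rd10 retina at P18, and 1437 and 1064 CPM at P21. Its log2 fold change was 1.31 at P18 (SE 0.19, adjusted p = 0.0222) and 1.51 at P21 (SE 0.19, adjusted p = 0.0332). Clusterin is made by Muller glia and other cells as well. Ms4a6d had 0 counts in all 4 P15 libraries and 4.53 and 2.61 CPM in rd10 P18, at least 69.5-fold higher than WT P15 (adjusted p = 0.0291).

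Among the other Fc receptor genes, Fcrls, a microglial gene of the Fc receptor-like family, measured 1.22 and 0.91 CPM in WT P15, against 3.18 and 4.12 CPM in rd10 retina at P15, 11.04 and 16.1 CPM at P18, and 13.2 and 6.54 CPM at P21. It was called at P18 with a log2 fold change of 3.67 (SE 0.44, adjusted p = 0.0116) and at P21 with 3.21 (SE 0.44, adjusted p = 0.0351). At P15 its log2 fold change was 1.78 (SE 0.42, adjusted p = 0.128), with both rd10 libraries above both WT libraries.

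**Figure D4:**
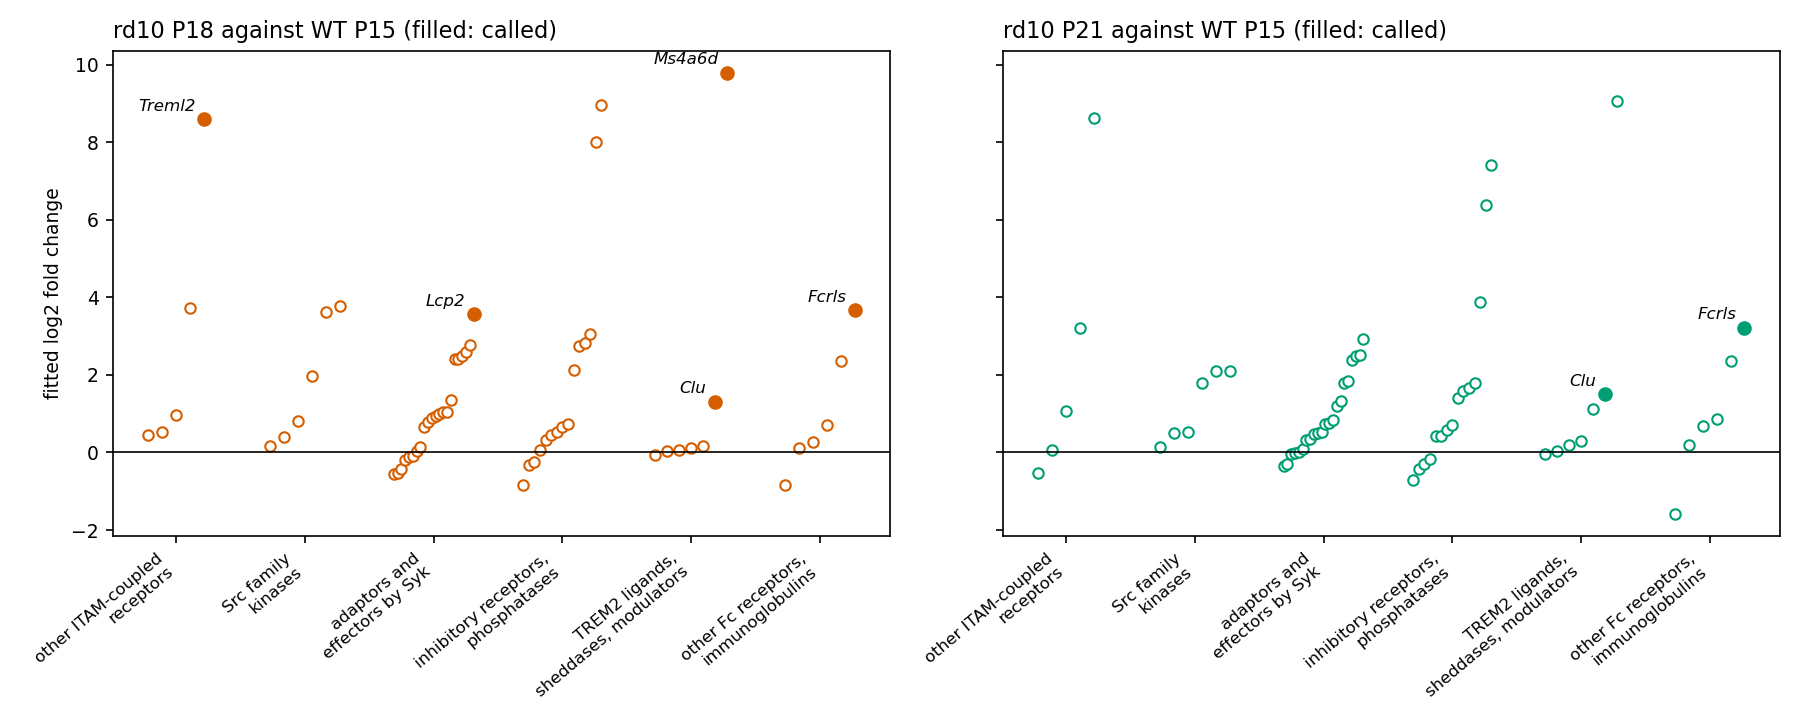
Fitted log2 fold change against WT P15 (y axis) of the 61 tested pathway genes by role (x axis), in rd10 P18 and rd10 P21, with filled and named points for called genes. Values above 5 belong to genes with 0 counts in WT P15 and depend on the prior count. Called genes number 5 at P18 and 2 at P21, all higher, and most others lie above 0.

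The 10 genes were also compared by their course over the 8 libraries, which share 4 groups, depth and the same retinas, so that the correlations are descriptions. Pairs without Trem2 had Pearson correlations of log2 CPM from 0.577 to 0.980 (median 0.854, 36 pairs), and those with Trem2 from 0.358 with Syk to 0.772 with Fcer1g (median 0.716, 9 pairs). Among 16206 genes with a mean of at least 1 CPM, those most like Tyrobp were C1qb (r = 0.994), Csf1 (0.984), Stk40 (0.983), H2-Ab1 (0.983) and Lyn (0.983). Those most like Trem2 were Zfp455 (0.979), Dmpk (0.964), Stx18 (0.927), Tfr2 (0.926) and P2ry13 (0.925), and those most like Syk were Wbp1l (0.983), Adamts7 (0.983), Trf (0.975), Ncdn (0.974) and Arhgef28 (0.967). With 8 libraries in 4 groups the gene at place 100 still reached 0.831 for Trem2, 0.940 for Tyrobp and 0.905 for Syk.

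The tool and single libraries decided how many of the set were called. DESeq2 called 8 of the 10 at P18 against WT P15 and 8 at P21, in both cases all but Trem2 and Hcst, where 3.63% and 2.36% of all genes were called higher. With edgeR and 1 library left out, the count at P18 ran from 0 (without either WT P15 library, or without rd10 P18 replicate 1) to 5 when rd10 P18 replicate 2 was left out, and for P21 from 0 to 2, when rd10 P21 replicate 2 was left out. The log2 fold change of each of the 10 against WT P15 was above 0 at P18 and P21 in each of these fits.

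**Figure D5:**
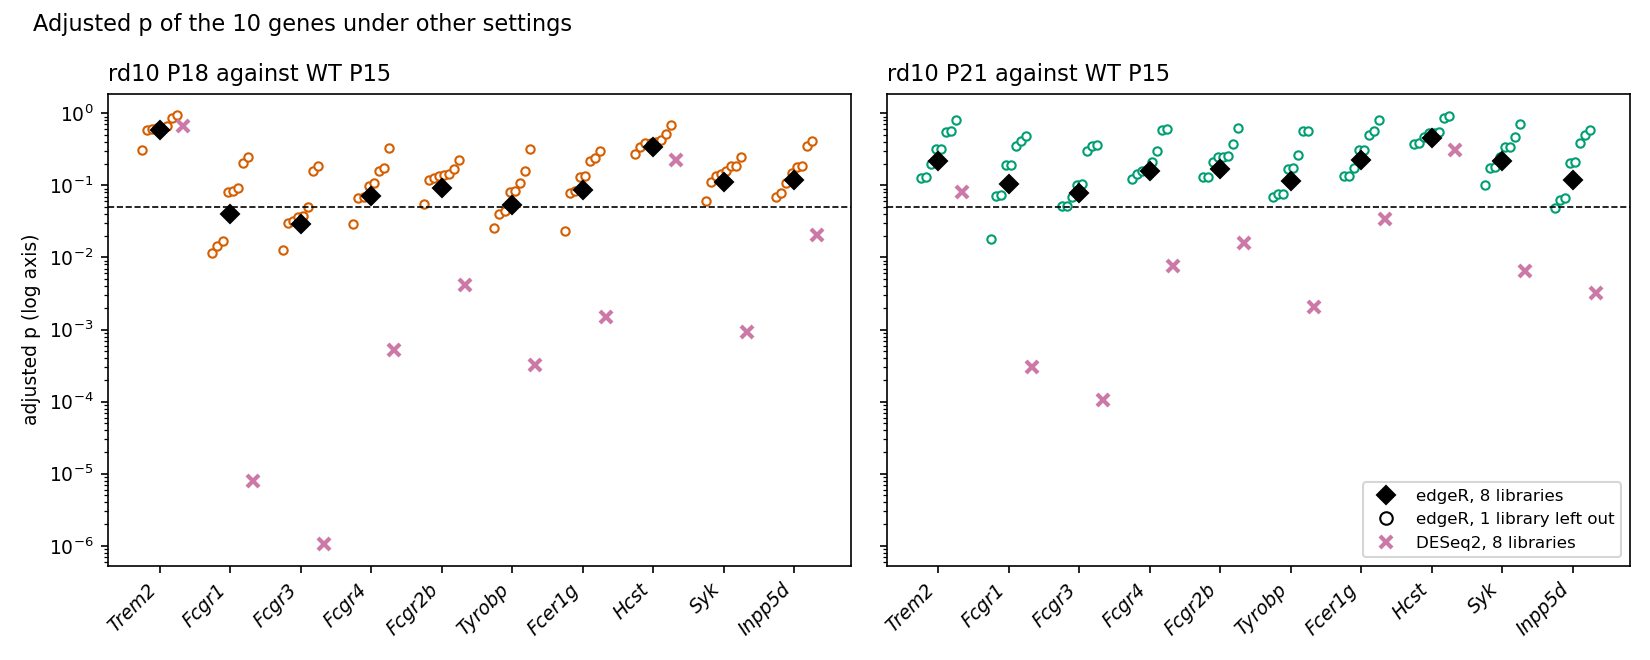
Adjusted p (y axis, log scale) of the 10 genes against WT P15 at P18 and P21, by edgeR with all libraries (diamonds), by edgeR with each library left out in turn (circles) and by DESeq2 (crosses), with the threshold of 0.05 as a broken line. Circles of Fcgr1, Fcgr3, Fcgr4, Tyrobp and Fcer1g at P18 fall on both sides of the line, as do those of Fcgr1 and Inpp5d at P21. The crosses of 8 genes lie below the line at both ages.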

How the data were processed

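Poly(A) RNA of 1 retina per library was sequenced on an Illumina NovaSeq instrument. The authors deposited raw read counts, which are whole numbers and not normalized, with 57010 Ensembl identifiers in each of 8 libraries. HISAT2 is named in the submitters' processing notes. What tool, genome build and annotation gave the counts is not given in the sources used here. GENCODE M21 (GRCm38) supplied symbols for 52029 identifiers, positions and lengths, and RefSeq the promoter sequences.

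Counts were filtered with filterByExpr (minimum count 10, minimum total count 15), scaled by TMM (factors 0.937 to 1.063) and fitted with edgeR 4.0.16 (R 4.3.3), robust quasi-likelihood, on all 8 libraries and with no replicate block. The fit leaves 4 residual degrees of freedom. Standard errors are the absolute log2 fold change divided by the square root of F. Log2 CPM used a prior count of 2. Both edgeR and DESeq2 were first tested on simulated data in which 200 genes changed. Figures were drawn with matplotlib 3.10.9.

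The set and the gene lists were chosen with earlier results of these data known. All 10 genes of the set are named. Of the pathway list, the genes named are, in each of the comparisons with WT P15, the called genes and otherwise the 3 with the largest absolute log2 fold change among those with a mean count of at least 50, and of all tested genes the 5 most correlated with Trem2, Tyrobp and Syk. Other genes were named after their values were seen. A pathway gene that this rule names at P18 is not reported here.

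Alternatives were DESeq2 1.42.0, RLE size factors, library size alone, no filter, only the 4 libraries compared, a replicate block, a term for sex, each library left out, and no fold threshold. Counting intervals cover counting error only.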

Additional observations from a re-analysis of the deposited data

How the results depend on the processing

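With a replicate block the set had 3 calls at P18 against WT P15 and 1 at P18 against rd10 P15, Fcer1g being added in both (adjusted p = 0.0198 and 0.0213). Over all genes the deviations of same-numbered libraries correlated at -0.0245 to 0.0594, which cannot settle whether the numbers pair the retinas. At P18 and P21 the replicate number also went with sex, replicate 2 being the library with high Xist. For P18 against WT P15, where 2 of the 10 genes were called, the count was 8 by DESeq2, 3 by library size alone, 4 without the filter and 1 with a term for sex. At P21 it was 8 by DESeq2 and 1 without the filter instead of 0. Against rd10 P15, where 0 were called, DESeq2 called 5 at P18 and 5 at P21, a term for sex gave 2 and 1, and the fit of only the libraries compared gave 1 at P18. Of the pathway genes DESeq2 called 2, 17 and 10 at the 3 ages compared with WT P15, and 14 and 9 against rd10 P15. Without the filter the pathway counts at P21 were 5 and 3, with the block 1 and 1, with a term for sex 1 and 2, by library size alone 2 and 2, and for only the libraries compared 2 and 4, against WT P15 and rd10 P15. At P18 against rd10 P15 the block gave 2 pathway calls and the term for sex 4. With 1 library left out, counts of the set ran from 0 to 5 for P18 and 0 to 2 for P21 over WT P15, and from 0 to 3 and 0 to 1 against rd10 P15. Those of the pathway ran from 0 to 9 and 0 to 4, from 0 to 8 and 0 to 4, and from 0 to 1 between P21 and P18. The cause of these differences was not tested.

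Of 900 refits of single fold changes, 824 kept direction and call, 47 gained the call, 9 lost it and 20 turned. Those that turned were values at P15 or between P21 and P18. With a term for sex the value at P15 was -0.56 for Fcgr1, -0.011 for Fcgr4, -0.29 for Tyrobp and -0.76 for Hcst, and that of Hcst between P21 and P18 was -0.15. With 1 library left out, values at P15 ran from -3.24 to 4.16 for Fcgr4, -0.036 to 2.24 for Fcgr2b, -0.018 to 0.82 for Tyrobp, -0.58 to 0.66 for Fcer1g and -0.51 to 4.13 for Hcst. Between P21 and P18 they ran from -1.95 to 0.22 for Fcgr1, -0.54 to 0.051 for Fcgr2b, -0.92 to 0.29 for Tyrobp, -1.41 to 0.10 for Fcer1g, -1.15 to 0.77 for Hcst, -1.14 to 0.089 for Syk and -0.44 to 0.94 for Inpp5d.

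With library size alone as the scale, all genes had a median of 0.14 at P18 and 0.11 at P21 relative to WT P15, on the log2 scale. Depth limits Fcgr4, Hcst and Syk most, which had 2, 3 and 15 counts over the WT libraries.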
